A study of Mus musculus with 10 samples.

Results

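In 3 of the 10 old mouse livers sequenced, transcripts of the serum amyloid A genes Saa1 and Saa2 made up more than 0.3% of all gene counts, and in the other 7 less than 0.1%. These 3 livers, Flox 2, Flox 3 and Flox 4, are called high below, and the other 7 low. The share was 1.72% in Flox 2, 3.43% in Flox 3 and 0.394% in Flox 4. In the low livers it was 0.0803% in LKO column 2, 0.0396% in LKO column 3, 0.0195% in LKO column 4, 0.00970% in Flox 1, 0.00787% in Flox 5, 0.00755% in LKO column 5 and 0.00371% in LKO column 1. The values on either side of the division were therefore 0.394% in Flox 4 and 0.0803% in LKO column 2. Exact 95% binomial intervals, which cover counting error only, ran from 0.392% to 0.395% and from 0.0795% to 0.0812% for those libraries. The livers were sorted by measured counts, so every difference between high and low livers below is a description of these libraries and carries no p-value.

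The Flox livers came from mice with both Arg2 alleles floxed (Arg2fl/fl), and the LKO livers from littermates lacking Arg2 in hepatocytes (Arg2LKO), with 5 libraries each. All were C57B/6J, as the labels spell it, 22 months old, fed normal chow and co-housed, and received no inflammatory stimulus that the labels mention. Poly(A) RNA of whole liver was sequenced, and total counts were 43331354 to 54951415 per library. The sources used here give neither the driver of Cre nor the sex of the mice. Arg2 held 9 counts in the 5 Flox libraries together and 10 in the 5 LKO libraries, with at most 6 in a library, too few to check the genotype labels. The high livers all carry the Flox label, so high livers were also set beside Flox 1 and Flox 5 alone.

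The acute phase response is the change in liver protein synthesis that follows infection, tissue injury or inflammation elsewhere in the body. Interleukin-6 and related cytokines signal through STAT3, and interleukin-1 and tumour necrosis factor through NF-kB and C/EBP factors, to raise secretion of proteins such as serum amyloid A, haptoglobin and fibrinogen from hepatocytes. Albumin, transthyretin and many enzymes of drug and bile acid metabolism are known to decline in the same state, and are called negative acute phase genes.

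Promoter sequence is shown for 5 of the genes that stood highest in the high livers, because they share a short element of the kind that C/EBP factors bind. Each line is a window of 64 bases upstream of the transcription start, from RefSeq on GRCm38.p6, written 5′ to 3′ on the strand of the gene. Capitals mark the match to TTGCNNAA, read on either strand.
Saa1: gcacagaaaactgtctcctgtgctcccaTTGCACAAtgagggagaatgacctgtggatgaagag
Saa2: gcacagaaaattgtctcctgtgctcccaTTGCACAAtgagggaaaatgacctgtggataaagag
Saa3: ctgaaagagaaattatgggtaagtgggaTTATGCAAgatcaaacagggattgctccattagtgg
Orm2: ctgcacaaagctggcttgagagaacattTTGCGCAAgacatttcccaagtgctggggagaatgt
Orm3: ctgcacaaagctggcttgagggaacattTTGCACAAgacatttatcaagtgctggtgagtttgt
The windows lie at chr7:46743127-46743190 on the minus strand for Saa1, chr7:46751622-46751685 on the plus strand for Saa2, chr7:46715740-46715803 on the minus strand for Saa3, chr4:63362301-63362364 on the plus strand for Orm2 and chr4:63356009-63356072 on the plus strand for Orm3. The match began 182 bases before the start of Saa1, 183 before Saa2, 99 before Saa3, 120 before Orm2 and 121 before Orm3. Saa1 and Saa2 are transcribed in opposite directions from neighbouring positions, and an alignment of their 250 upstream bases matched 238. In the transcribed part, reads of such close copies may be split or lost, so the sum of both genes is the firmer value.

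The element was looked for in the 250 bases upstream of the starts in the RefSeq table that had all 250 bases. Starts on chromosome 18 were left out, and with them Cidea and Ttr, which are described below. TTGCNNAA was present in 9.56% of 32851 promoters, and in 7.92% of the first promoters of the 10840 measured genes that matched the table. Of the genes with every high liver above every low liver, and means at least 2-fold apart, 153 matched a promoter. Of those 153, 17.0% held TTGCNNAA, against 8.90% of 146 matched genes chosen the same way on the lower side. TTCNNNGAA, the letters that STAT factors bind, was present in 7.02% of all promoters, 6.25% of the measured genes' first promoters, 15% of the higher and 6.16% of the lower genes. Matches of the 2 elements cannot overlap, since their fixed letters conflict at every offset. A match describes letters only, and the genes were picked by their levels, so these shares carry no test.

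Across the 15894 genes measured well enough to compare, a gene is counted as higher or lower without overlap when all 3 high livers lay beyond the range of all 7 low livers. By this count 725 genes (4.56%) were higher and 839 (5.28%) lower, together 1564 (9.84%). A difference of at least 2-fold between the mean log2 values was added for 214 of the higher genes (1.35%) and 204 of the lower genes (1.28%). Scaling by library totals, in place of the TMM factors used throughout, gave 1038 higher and 565 lower genes, so the higher share of these genes was 64.8% in place of 46.4%. That scaling put the median difference of all genes at 0.06 log2 units, against 0.01 with TMM. Set beside Flox 1 and Flox 5 alone, the high livers were higher without overlap in 2605 genes (16.4%) and lower in 2846 (17.9%), of which 575 (3.62%) and 542 (3.41%) also differed 2-fold. The larger numbers follow in part from there being only 2 livers to exceed.

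The serum amyloid genes lie together on chromosome 7 of GRCm38. Saa1 (ENSMUSG00000074115, 46740497 to 46742980) stood at 9468 CPM (counts scaled to a common library total by TMM) in Flox 2, 16464 in Flox 3 and 1900 in Flox 4. In the low livers Saa1 ranged from 26.4 to 550 CPM with a median of 62.6, and was 62.6 in Flox 1 and 43.7 in Flox 5. Saa2 (ENSMUSG00000057465, 46751790 to 46754313) stood at 7476, 17181 and 1874 CPM in Flox 2, 3 and 4, against 12.1 to 248 CPM in the low livers. Both were used to divide the livers, and their differences in mean log2 CPM were 6.17 for Saa1 and 6.87 for Saa2.

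The other serum amyloid genes had no part in the division. Saa3 (ENSMUSG00000040026, 46711998 to 46715700), which macrophages and other cells outside the hepatocyte lineage are also known to make, stood at 49.0 CPM in Flox 2, 1534 in Flox 3 and 24.1 in Flox 4. The low livers held 2.26 to 20.6 CPM of Saa3 with a median of 5.34, so Flox 4 lay just beyond LKO column 2 and Flox 3 far from every other liver. Saa4 (ENSMUSG00000040017, 46727998 to 46732603), the constitutive member of the family, stood at 1270, 1483 and 699 CPM in Flox 2, 3 and 4, against 249 to 550 CPM in the low livers. All 4 serum amyloid genes were thus higher without overlap, with a span of differences from 1.64 for Saa4 to 6.87 for Saa2. No level of Saa1 or Saa2 can be compared with that of another gene here without a length, and only differences between livers are read.

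Secreted acute phase proteins made up the next group. Of 27 measured genes listed for it, 19 were higher without overlap and 0 lower, against 4.56% and 5.28% of all genes, and the median difference was 1.51 log2 units against 0.01 over all genes. This list, like the others below, was drawn up with earlier results of these libraries known. Lcn2 (ENSMUSG00000026822, chromosome 2, 32384633 to 32388252), lipocalin 2, which binds bacterial siderophores, stood at 785 CPM in Flox 2, 3391 in Flox 3 and 493 in Flox 4. The low livers held 7.92 to 183 CPM of Lcn2 with a median of 31.7. Orm2 (ENSMUSG00000061540, chromosome 4, 63362449 to 63365878), an alpha-1-acid glycoprotein, stood at 934, 2575 and 779 CPM in Flox 2, 3 and 4, against 22.0 to 299 CPM with a median of 51.2. For both genes the highest low liver was LKO column 2, the low liver with the largest serum amyloid share. Its relatives Orm1 and Orm3 were higher by 2.19 and 3.01 log2 units. The 3 Orm genes are close copies, and the sources used here do not say how shared reads were counted.

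Apcs (ENSMUSG00000026542, chromosome 1, 172893961 to 172895041) encodes serum amyloid P, the pentraxin that acts as a major acute phase reactant in mice. It stood at 334 CPM in Flox 2, 475 in Flox 3 and 199 in Flox 4, against 43.9 to 87.9 CPM in the low livers with a median of 65.5. Hp, the haemoglobin scavenger haptoglobin, stood at 17953, 26362 and 10470 CPM in Flox 2, 3 and 4, against 2648 to 8156 CPM. Hpx, which binds free haem, stood at 15685, 21702 and 11817 CPM, against 3773 to 9825 CPM. The high livers lay above all low livers for both, with the smallest gap between Flox 4 and the highest low liver. The fibrinogen chains Fga, Fgb and Fgg were higher by 1.29, 1.15 and 1.19 log2 units, and for these Flox 2 stood highest, at 16555 CPM of Fgb against 13010 in Flox 3 and 8614 in Flox 4. Lrg1, a leucine-rich plasma glycoprotein, was higher by 2.59, Fgl1, a fibrinogen-like hepatokine, by 2.26 and the protease inhibitor Serpina3n by 2.21 log2 units. Crp, which responds little in mice, stood at 678, 542 and 302 CPM against 206 to 337 CPM, so Flox 4 lay within the range of the low livers.

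Of 21 metal handling genes 5 were higher without overlap (23.8%, against 4.56% of all genes) and 1 lower (4.76%, near the 5.28% of all genes). Mt1 (ENSMUSG00000031765, chromosome 8, 94179082 to 94180327), a metallothionein that binds zinc and copper, stood at 928 CPM in Flox 2, 2445 in Flox 3 and 236 in Flox 4, against 5.99 to 80.1 CPM with a median of 26.3. Mt2 stood at 37.2, 85.0 and 7.17 CPM in the same livers, against 0.20 to 2.62 CPM, a difference of 5.17 log2 units. Slc39a14, the zinc importer ZIP14, was higher by 1.04 and Steap4, a metalloreductase, by 2.13, whereas the zinc transporter gene Slc39a10 was lower by 1.05 log2 units. Scara5, a ferritin receptor, was higher by 3.23. Hamp, the iron hormone hepcidin, did not separate the livers. It stood at 773, 893 and 736 CPM in Flox 2, 3 and 4, inside the range of 170 to 938 CPM in the low livers, and the sign of its difference depended on the comparison, at 0.63 against all low livers and -0.18 against Flox 1 and Flox 5.

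**Figure D1:**
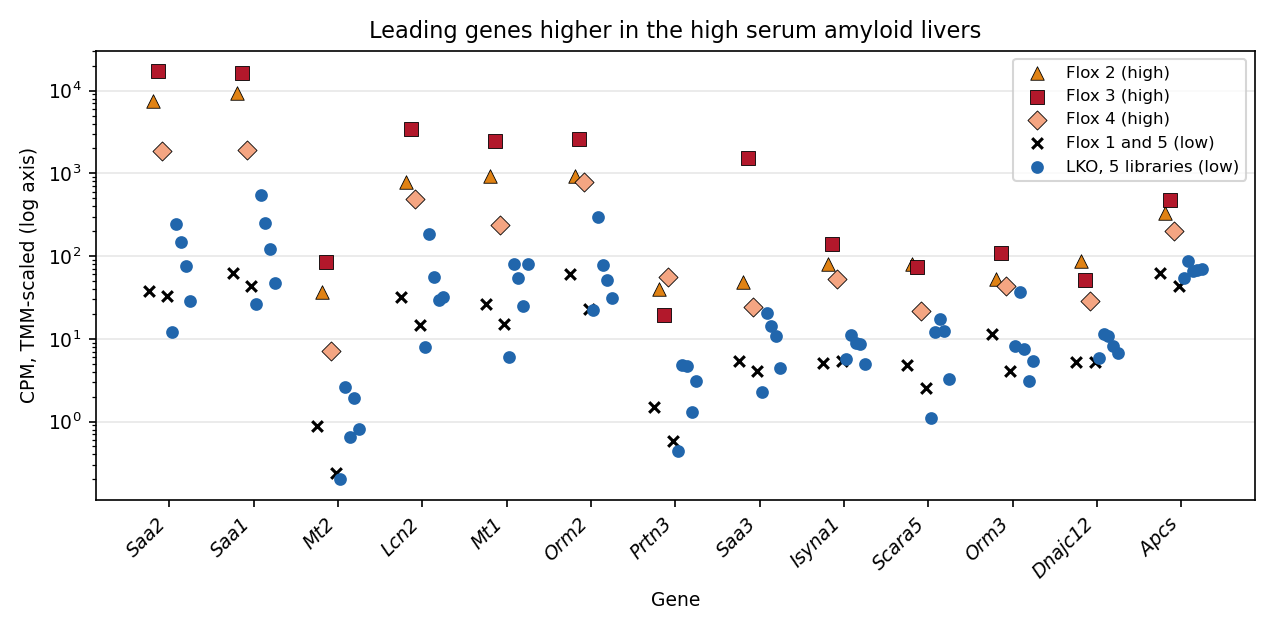
TMM-scaled CPM (log axis) of the 12 leading higher genes and Apcs in each of the 10 libraries, with symbols for Flox 2, Flox 3 and Flox 4 (high), Flox 1 and Flox 5 (low) and the 5 LKO libraries (low). The 3 high livers lie above all low livers for each gene, and Flox 3 at 1534 CPM of Saa3 lies far above Flox 2 at 49.0 and Flox 4 at 24.1.

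Several leading genes belong to none of these families. Isyna1, which makes inositol phosphate from glucose-6-phosphate, stood at 79.3 CPM in Flox 2, 142 in Flox 3 and 53.4 in Flox 4, against 4.96 to 11.2 CPM. Dnajc12, a co-chaperone gene, stood at 86.1, 52.1 and 28.3 CPM, against 5.20 to 11.5 CPM. Slc13a5, the citrate carrier, was higher by 2.91 and Slc13a3, a dicarboxylate carrier, by 1.95 log2 units. Prtn3, which encodes the neutrophil granule protease proteinase 3, stood at 40.4, 19.2 and 56.6 CPM, against 0.444 to 4.88 CPM. Elane, a related granule protease, held 46, 30 and 119 counts in Flox 2, 3 and 4, against 3 to 37 in the low livers, so Flox 3 lay within that range. The granule genes Mpo, Camp and Ngp were highest in Flox 4 and LKO column 2. Mpo held 8, 4 and 133 counts in Flox 2, 3 and 4, Camp 0, 0 and 80, and Ngp 0, 4 and 153, whereas LKO column 2 held 65, 74 and 91 counts of these genes.

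Of 34 genes of interleukin-6 and interleukin-1 signalling 16 were higher without overlap and 1 lower, against 4.56% and 5.28% of all genes, with a median difference of 0.69 log2 units. Socs3, the feedback inhibitor of STAT3 signalling, stood at 43.9 CPM in Flox 2, 63.3 in Flox 3 and 23.6 in Flox 4, against 2.40 to 16.9 CPM with a median of 5.02. Receptor genes were among them, namely Il6ra by 0.75, its partner Il6st by 0.51, Osmr by 1.11 and Il1r1 by 2.47 log2 units. The adaptor genes Tifa and Myd88 were higher by 2.27 and 0.89, Stat3 by 0.86, and the C/EBP genes Cebpb and Cebpd by 0.81 and 0.86. The decoy-type regulator Irak3, which restrains interleukin-1 signalling, was higher by 1.67. Il1rap, the shared co-receptor of the interleukin-1 family, was the member that was lower. It stood at 109, 104 and 109 CPM against 127 to 160 CPM, a difference of -0.42.

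Of 21 listed cytokine genes with a line in the deposited counts, 12 passed the filter on low counts, and 0 of these were beyond the range of the low livers in all 3 high livers. Of the 12, 10 had a higher mean in the high livers, with a median difference of 1.21 log2 units. Above the low range lay 9 in Flox 4, 7 in Flox 3 and 2 in Flox 2. For all genes these shares were 15.9% in Flox 4, 23.4% in Flox 3 and 22.5% in Flox 2. Il6, Tnf and Osm did not pass that filter. Cxcl1, a neutrophil attractant, stood at 74.4 CPM in Flox 2 and 75.2 in Flox 3, but at 12.1 in Flox 4, inside the low range of 2.40 to 21.5 CPM. Cxcl9, induced by interferon-gamma, stood at 15.4, 558 and 46.0 CPM in Flox 2, 3 and 4, against 10.6 to 26.5 CPM, so Flox 2 lay within that range. Complement and coagulation genes were mixed. Of 28 complement genes 6 were higher (21.4%, against 4.56% of all genes) and 1 lower (3.57%, against 5.28% of all genes). C3, the central complement component, stood at 18737, 24520 and 15532 CPM against 7153 to 11883 CPM. Of 24 coagulation genes 5 were higher (20.8%) and 1 lower (4.17%). Cpb2, an inhibitor of fibrin breakdown, was higher by 0.90 log2 units and F7 by 0.44.

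Among the named genes the largest lower difference, -6.13 log2 units, was that of Cidea. This gene (ENSMUSG00000024526), a lipid droplet protein that is scarce in lean liver and abundant in fatty liver, stood at 0.445 CPM in Flox 2, 2.10 in Flox 3 and 0.0349 in Flox 4. These values rest on 22, 96 and 2 counts. The low livers held 4.0 to 116 CPM of Cidea with a median of 69.4, and Flox 1 and Flox 5 stood at 78.6 and 69.4, so the low livers themselves spread widely. Its relative Cidec, which enlarges lipid droplets, stood at 2.02, 5.35 and 1.29 CPM, against 7.27 to 92.2 CPM. Scd1 (ENSMUSG00000037071, chromosome 19, 44394455 to 44407879), the stearoyl-CoA desaturase, stood at 2146 CPM in Flox 2, 1052 in Flox 3 and 6670 in Flox 4, against 9908 to 21607 CPM with a median of 17821. Pparg, a nuclear receptor that favours fat storage in liver, stood at 5.67, 8.23 and 7.05 CPM, against 8.93 to 30.9 CPM. In a bulk sample, fewer cells of a type and less RNA per cell cannot be told apart, here and in the results below.

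Of 25 measured fatty acid synthesis genes 7 were lower without overlap (28%, against 5.28% of all genes) and 0 higher. The median difference was -1.19 log2 units. All 25 had a lower mean in the high livers. Besides Scd1 the 7 included Me1, which supplies NADPH, at -1.99, Scd2 at -1.75, the ATP citrate lyase Acly at -1.69 and the acyltransferase Gpam at -1.57. The count was limited by Flox 4. In Flox 2 21 of the 25 genes and in Flox 3 22 lay below the low range, but in Flox 4 only 7 did. For all genes these shares were 21.1% in Flox 2, 22.7% in Flox 3 and 16.0% in Flox 4. Fasn, the fatty acid synthase, stood at 548 CPM in Flox 2 and 213 in Flox 3 but at 1671 in Flox 4, inside the low range of 1409 to 3131 CPM. Thrsp, a regulator of lipogenesis, stood at 87.3, 18.1 and 793 CPM, against 477 to 2030 CPM.

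The remaining leading lower genes were of varied function. Car3, a carbonic anhydrase abundant in hepatocytes of rodents, stood at 265 CPM in Flox 2, 248 in Flox 3 and 968 in Flox 4, against 2989 to 4836 CPM. Gprc5b, an orphan receptor gene, stood at 0.121, 0.328 and 0.244 CPM, against 2.75 to 12.3 CPM. Osbpl3, a lipid transfer protein gene, stood at 0.850, 1.16 and 0.890 CPM, against 5.47 to 27.7 CPM. The 3 high livers were thus close to each other for Osbpl3, although their serum amyloid shares differed up to the values given above. For Gprc5b they spread more, on only 6, 15 and 14 counts in Flox 2, 3 and 4. Abcd2, a peroxisomal fatty acid transporter, was lower by 2.46 and Slc17a8, a vesicular glutamate transporter, by 2.77 log2 units. Rgs16, a regulator of G protein signalling that cycles with feeding and time of day, stood at 3.80, 2.47 and 3.77 CPM, against 7.13 to 189 CPM. Clock output genes also varied among the low livers. Dbp stood at 0.798 CPM in Flox 1 and 91.0 in Flox 5, and at 1.68, 1.97 and 47.3 in Flox 2, 3 and 4. None of 18 clock genes separated the livers, that is 0 higher and 0 lower.

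**Figure D2:**
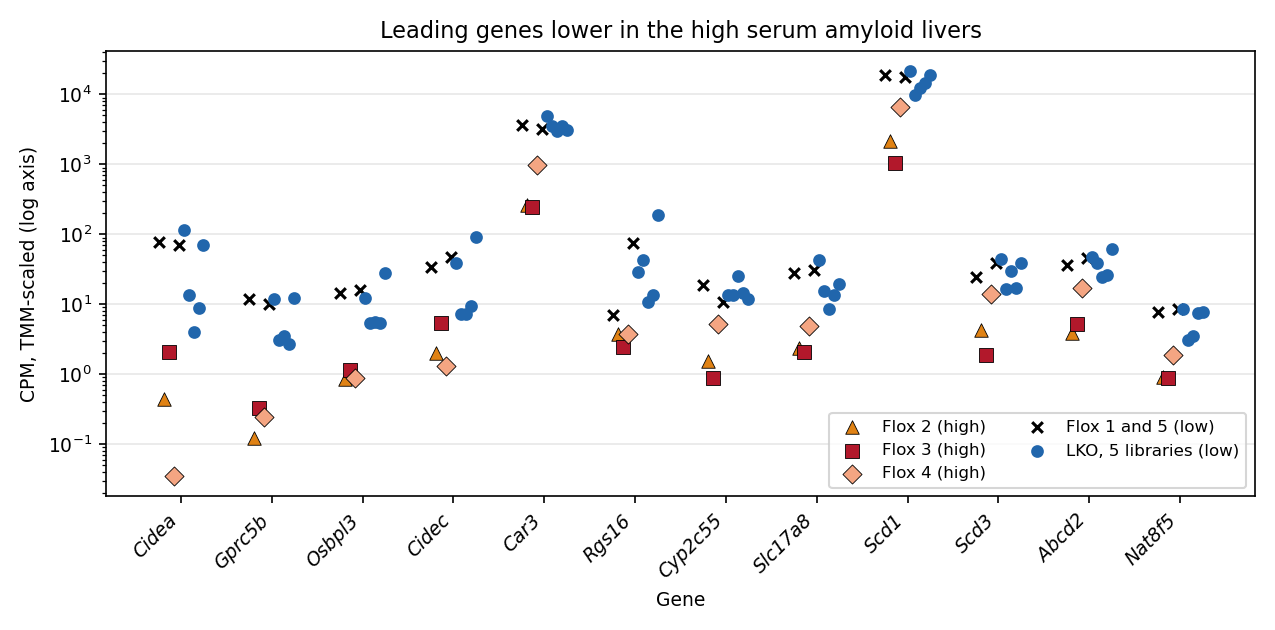
TMM-scaled CPM (log axis) of the 12 leading lower genes in each of the 10 libraries, with the same symbols for the high and low livers. The 3 high livers lie below all low livers for each gene; Cidea ranged from 4.0 to 116 CPM among the low livers, while Car3 ranged only from 2989 to 4836 CPM.

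Drug and bile acid metabolism followed. Of 51 measured cytochrome P450 and related oxidase genes 13 were lower (25.5%, against 5.28% of all genes). Another 2 were higher (3.92%, near the 4.56% of all genes), Cyp2d40 and Cyp3a13, named after their values were seen. The median difference was -0.47 log2 units. Cyp3a11 (ENSMUSG00000056035, chromosome 5, 145854426 to 145879964), a main drug-oxidising enzyme of mouse liver, stood at 1669 CPM in Flox 2, 762 in Flox 3 and 2169 in Flox 4, against 3354 to 5505 CPM. Cyp2c55 stood at 1.56, 0.895 and 5.15 CPM, against 10.7 to 25.2 CPM. Members of the Cyp3a and Cyp2c families are close copies, so reads may be split among them. Of 47 conjugation enzyme genes 18 were lower and 0 higher, with a median of -0.47. Gsta1 and Gstm3, glutathione transferases, were lower by 2.61 and 1.83, and the sulfotransferase gene Sult1c2 by 1.71 log2 units. This was 38.3% of the list against 5.28% of all genes.

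Genes of bile acid synthesis differed in whether Flox 4 lay below the low range along with Flox 2 and Flox 3. Cyp8b1, the sterol 12-alpha-hydroxylase that sets the share of cholic acid, stood at 89.6 CPM in Flox 2, 52.3 in Flox 3 and 92.0 in Flox 4, against 155 to 481 CPM. Akr1d1, a reductase of the same pathway, was lower by 0.88 log2 units. Cyp7a1, the rate-limiting enzyme, stood at 9.09 and 4.5 CPM in Flox 2 and Flox 3 but at 77.3 in Flox 4, against 31.8 to 83.0 CPM. Of 14 genes of the pathway 4 were lower (28.6%, against 5.28% of all genes) and 0 higher. Of 30 hepatic transporter genes 5 were lower (16.7%) and 3 higher (10%, against 4.56% of all genes). The bile acid importer Slc10a1 stood at 204 and 212 CPM in Flox 2 and Flox 3 and at 486 in Flox 4, against 427 to 803 CPM, so it did not separate the livers.

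Secreted proteins of the negative acute phase were lower to a smaller extent. Alb (ENSMUSG00000029368, chromosome 5, 90460897 to 90476602), albumin, stood at 57165 CPM in Flox 2, 35269 in Flox 3 and 80807 in Flox 4, against 85281 to 122620 CPM. The gap between Flox 4 and Flox 1, the lowest low liver at 85281, was narrow. Ttr, transthyretin, stood at 4050, 3611 and 5708 CPM, against 5775 to 7994 CPM. Rbp4, the retinol carrier, was lower by 0.37 and Apoa2 by 0.45 log2 units, while Trf, transferrin, was higher by 0.36. Of 38 measured genes in the list 6 were lower without overlap (15.8%, against 5.28% of all genes). Another 2 were higher (5.26%, near the 4.56% of all genes), and the median difference was -0.20. Among 21 major urinary protein genes, which are close copies, 0 were higher and 1 lower (4.76%, near the 5.28% of all genes).

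Amino acid and glucose metabolism were also on the lower side. Of 52 urea cycle and amino acid catabolism genes 12 were lower (23.1%, against 5.28% of all genes) and 0 higher. The median was -0.34 log2 units. Ass1, argininosuccinate synthase, stood at 1585 CPM in Flox 2, 916 in Flox 3 and 2547 in Flox 4, against 2808 to 3859 CPM. Arg1, the cytosolic arginase, was lower by 0.41 and Otc by 0.63 log2 units. Of 20 gluconeogenesis and glycogen genes 7 were lower (35%) and 0 higher, with a median of -0.63. Gys2, the liver glycogen synthase, and Pygl, the liver glycogen phosphorylase, were both lower, by 1.06 and 1.01, so enzymes of glycogen making and breakdown lay on the same side. Ghr, the growth hormone receptor, was lower by 0.60.

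Mitochondrial and fat oxidation genes were read next. Of 69 nuclear oxidative phosphorylation genes 16 were lower and 0 higher, against 5.28% and 4.56% of all genes, with a median of -0.26 log2 units. Sdha, a subunit of complex II, stood at 418, 358 and 356 CPM in Flox 2, 3 and 4, against 469 to 597 CPM. Of 13 mitochondrially encoded genes 3 were lower, with mt-Nd5 at -0.85. Mitochondrial transcripts made up 3.12% to 4.91% of counts in the high livers and 4.64% to 8.38% in the low livers. Flox 2 had all 13 below the low range, Flox 3 had 9 and Flox 4 had 3, against 21.1%, 22.7% and 16.0% of all genes. The peroxisomal beta-oxidation genes Acaa1b and Ehhadh were lower by 2.16 and 1.52. Acaa1b stood at 198, 208 and 210 CPM in the high livers, against 552 to 1316 CPM. Cyp4a10, a PPAR-alpha target, stood at 26.7, 157 and 17.6 CPM, against 65.4 to 430 CPM, so Flox 3 lay within the range. Of 42 fatty acid oxidation and ketogenesis genes 3 were lower without overlap (7.14%), near the 5.28% of all genes.

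Some of these names depend on the scaling and on the low-count filter. With library totals in place of TMM, 17 of 125 named genes that separated the livers no longer did so, among them Alb, Ttr, Apoa2, Acly, Gnmt, Gpt2, Got1 and mt-Co1, although none of these 17 changed direction under any alternative tried. At a mean of at least 5 CPM 93 of 106 still separated the livers, with Ttr, Apoa2, Acly, Gnmt and mt-Co1 among those lost, and with no filter Ttr and Cd74 were lost. Transcription factors that maintain hepatocyte identity showed little. Of 19 such genes 0 were higher and 1 lower (5.26%, near the 5.28% of all genes). Hnf4a stood at 686, 727 and 556 CPM in Flox 2, 3 and 4 against 480 to 608 CPM. Of 16 general hepatocyte genes 4 were lower (25%) and 2 higher (12.5%, against 4.56% of all genes). The summed level of the 16 was 125720, 95278 and 148710 CPM against 145300 to 192510 CPM.

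The 3 high livers differed among themselves in more than the size of the acute phase. Taken singly, Flox 2 lay above the low range in 3573 genes (22.5%) and below it in 3352 (21.1%), Flox 3 in 3727 (23.4%) and 3606 (22.7%), and Flox 4 in 2532 (15.9%) and 2538 (16.0%). The order of the serum amyloid shares, Flox 4 below Flox 2 below Flox 3, was followed by 231 of the 725 higher genes. Its reverse was followed by 296 of the 839 lower genes. How many of all genes followed either order was not counted, so these numbers have no background to be set against. Flox 3 lay at least 2-fold above the highest low liver in 317 genes (1.99%), Flox 2 in 118 (0.742%) and Flox 4 in 74 (0.466%). At least 2-fold below the lowest low liver, Flox 3 had 399 genes (2.51%), Flox 2 had 332 (2.09%) and Flox 4 had 84 (0.529%).

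Genes induced by interferon-gamma were high in Flox 3 and Flox 4 and mostly within the low range in Flox 2. Of 18 interferon-gamma-induced GTPase and related genes, 18 lay above the low range in Flox 3, 18 in Flox 4 and 1 in Flox 2. Over all genes the shares above it were 23.4% in Flox 3, 15.9% in Flox 4 and 22.5% in Flox 2. Gbp2, a guanylate-binding protein active against intracellular microbes, stood at 6.50 CPM in Flox 2, 174 in Flox 3 and 14.6 in Flox 4, against 3.85 to 9.32 CPM. Iigp1 stood at 267, 1868 and 504 CPM in the same order, against 158 to 342 CPM. Of 35 other interferon-stimulated genes 26 lay above the low range in Flox 3, 16 in Flox 4 and 4 in Flox 2, so Flox 4 stood apart less clearly there. Antigen presentation showed the same division. Of 24 MHC class I genes 18 lay above the low range in Flox 3, 18 in Flox 4 and 2 in Flox 2, and of 10 MHC class II genes 8, 7 and 2. Zbp1, a sensor of nucleic acids, was higher in all 3, at 25.5, 168 and 49.9 CPM in Flox 2, 3 and 4 against 4.08 to 20.2 CPM. Since the pattern differs among the 3 livers, the counts without overlap were low. They were 1 of 18 GTPase genes (5.56%) and 2 of the 35 interferon-stimulated genes (5.71%), near the 4.56% of all genes.

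Secretory stress genes had another order. Of 36 unfolded protein response genes 29 lay above the low range in Flox 2, 21 in Flox 3 and 4 in Flox 4. Over all genes the shares above it were 22.5% in Flox 2, 23.4% in Flox 3 and 15.9% in Flox 4. Creld2, a target of endoplasmic reticulum stress, stood at 163 CPM in Flox 2, 147 in Flox 3 and 65.9 in Flox 4, against 18.3 to 95.5 CPM. Hspa5, the chaperone BiP, stood at 1563, 1179 and 875 CPM, against 460 to 1175 CPM. Cholesterol synthesis genes lay below the low range mostly in Flox 3, with 21 of 24 genes below the low range there, 6 in Flox 2 and 1 in Flox 4. Fatty acid oxidation and ketogenesis genes lay below the low range mostly in Flox 4, with 34 of 42 there, 16 in Flox 2 and 6 in Flox 3. Over all genes the shares below it were 21.1% in Flox 2, 22.7% in Flox 3 and 16.0% in Flox 4. These counts describe single livers, and differences between single livers have no replicate.

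**Figure D3:**
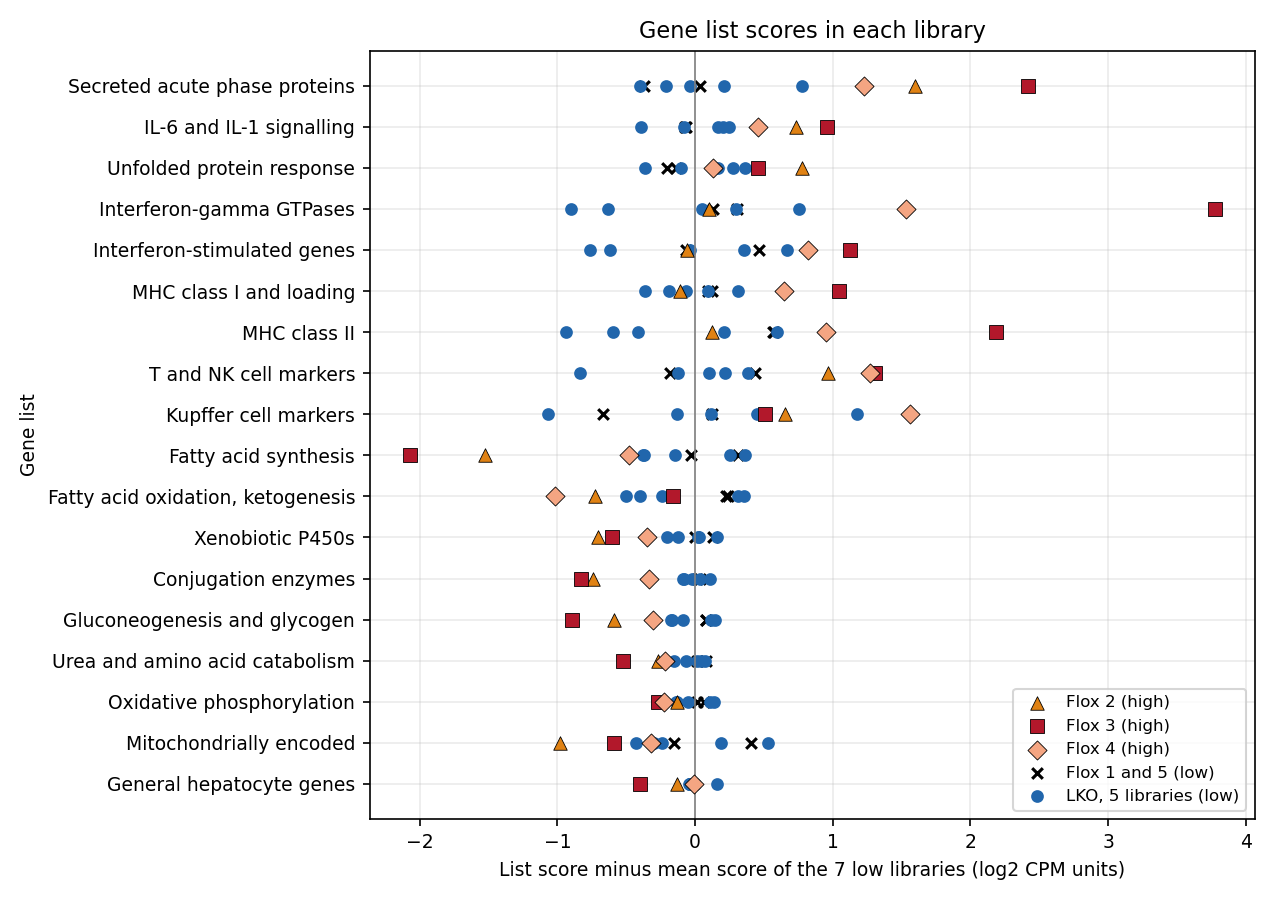
Score of 18 gene lists in each library, as log2 CPM averaged over the measured genes of the list, minus the mean of the 7 low libraries (x axis, log2 units), with symbols for the 3 high livers, Flox 1 and 5, and the 5 LKO libraries. Secreted acute phase proteins put all 3 high livers above the low ones, whereas interferon-gamma GTPases put Flox 3 and Flox 4 above and Flox 2 among them, and fatty acid oxidation put Flox 4 and Flox 2 below and Flox 3 among them.

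Markers of other liver cells were read beside these genes. Of 20 T and NK cell markers 8 were higher without overlap and 0 lower, against 4.56% of all genes, and their summed level was 30.4, 34.3 and 41.6 CPM in Flox 2, 3 and 4 against 15.6 to 27.1 CPM. Cd3d, a T cell receptor subunit, stood at 0.931, 1.11 and 0.663 CPM, against 0.0846 to 0.401 CPM, and Nkg7, a cytotoxic granule protein gene, at 1.09, 1.75 and 1.62, against 0.0444 to 0.548 CPM. These genes were few in counts in every liver. Kupffer cell markers summed to 789, 761 and 1198 CPM, against 338 to 957 CPM. Above the low range lay 14 of 20 in Flox 4, 4 in Flox 3 and 1 in Flox 2. For all genes these shares were 15.9% in Flox 4, 23.4% in Flox 3 and 22.5% in Flox 2. Markers of recruited macrophages summed to 118, 115 and 153 CPM, against 61.6 to 146 CPM. Of the 16 measured, 2 were higher without overlap, Ccr2 by 1.49 and Itgax by 1.56 log2 units, and 4 had a lower mean in the high livers.

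Neutrophil markers summed to 47.9, 40.5 and 78.6 CPM in Flox 2, 3 and 4, against 2.3 to 26.8 CPM. Prtn3 alone held 40.4, 19.2 and 56.6 CPM of these sums. Of the 9 measured markers 8 had a higher mean in the high livers, but only 1, Prtn3, was higher without overlap (11.1%, against 4.56% of all genes). S100a8 held 36, 177 and 235 counts in Flox 2, 3 and 4, against 16 to 276 in the low livers. S100a9 held 153, 459 and 417 counts, against 17 to 447. B and plasma cell markers summed to 414, 330 and 468 CPM, against 252 to 585 CPM, and 0 of 16 separated the livers. Markers of sinusoidal endothelium summed to 208, 290 and 331 CPM, against 192 to 302 CPM, with 0 of 22 apart. Of 19 stellate cell and fibroblast markers 2 were lower (10.5%, against 5.28% of all genes), Acta2 by 1.67 and Rgs5 by 0.96 log2 units. The list summed to 264, 298 and 454 CPM against 390 to 608 CPM. Of 12 bile duct cell markers 1, Krt18, was higher (8.33%, against 4.56% of all genes), and 7 had a lower mean in the high livers. The 12 summed to 963, 752 and 886 CPM against 606 to 774 CPM. Krt18 made up much of these sums, at 441, 361 and 412 CPM against 231 to 344 CPM. The mean log2 CPM of the list was 2.33, 2.01 and 2.19, within the low range of 1.81 to 2.52. Of 11 blood and erythroid markers 1 was lower (9.09%), and they summed to 241, 361 and 415 CPM against 236 to 903 CPM. No list had a marker at 0 counts in all 10 libraries. The part of these cells in the interferon, antigen presentation and acute phase differences was not tested.

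Within the low livers the serum amyloid share still varied. The division used this share only to place all 7 under 0.1%, and not the genes set against it here. These genes were chosen with earlier results of these libraries known, and Lcn2, Orm2, Apcs and Mt1 among them are markers of the high livers. The p-values below therefore describe these 7 libraries and are no independent support for the division. Over these 7 libraries, log2 CPM of 12 genes was set against the log10 share, with exact permutation p-values adjusted over the 12 by the Benjamini-Hochberg method. Saa3 followed the share with Pearson r = 0.986 (exact permutation p = 0.000397, adjusted 0.00476) and Spearman rho = 0.964 (adjusted exact p = 0.0333). Without LKO columns 2 and 3, the 2 libraries farthest from the median share, r for Saa3 was 0.996. Orm2 had r = 0.922 (exact permutation p = 0.00139, adjusted 0.00833) and rho = 0.929 (adjusted exact p = 0.0405), and r = 0.747 without those libraries. Lcn2 had r = 0.929 (exact permutation p = 0.00278, adjusted 0.0111), but rho = 0.75 missed the threshold (adjusted exact p = 0.199), and r was 0.767 without those libraries. Lesser shares within the low range were thus accompanied by lesser Saa3 and Orm2.

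The other 9 genes did not pass. Hp had r = 0.815 (adjusted exact p = 0.0738) and rho = 0.821 (adjusted exact p = 0.137), and r was 0.364 without LKO columns 2 and 3. Mt2 had r = 0.757 (adjusted exact p = 0.116), Apcs 0.715 and Mt1 0.702 (both adjusted exact p = 0.132). Of the genes low in all high livers, Alb had r = 0.476 and Cyp3a11 0.275, and neither passed. Cyp7a1, which was below the low range in Flox 2 and Flox 3 only, had r = 0.0857 and Slco1a1 0.297, and neither passed. Without LKO columns 2 and 3 r of Alb was -0.33, and rho of Cyp7a1 over the 7 libraries was -0.18, so these values give no direction. The low livers are 2 Flox and 5 LKO libraries. Within the 5 LKO libraries alone, a choice made after seeing the data and given with no test, r was 0.985 for Saa3, 0.949 for Orm2 and 0.936 for Lcn2, and 2 Flox libraries give no correlation.

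**Figure D4:**
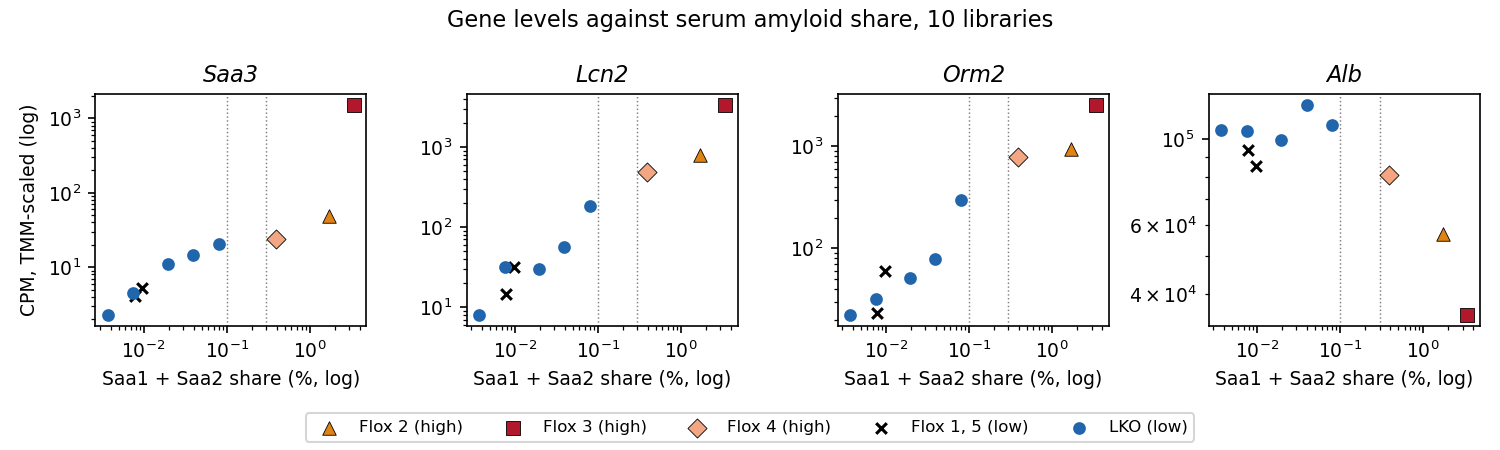
TMM-scaled CPM of Saa3, Lcn2, Orm2 and Alb (y, log axes) against the Saa1 and Saa2 share of counts in percent (x, log axes) in the 10 libraries, with dotted lines at 0.1% and 0.3%. Saa3 and Orm2 increase with the share across the low livers too and Lcn2 less regularly in rank, whereas Alb lies between 85281 and 122620 CPM in the low livers with no such order and is lowest in Flox 3 at 35269 CPM.

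Among the low livers, LKO column 2 lay nearest to the high ones most often. It was the highest of the 7 low livers in 27.0% of the 725 higher genes, against 13.8% of all genes, and LKO column 3 in 19.6%, against 12.7%. For the 839 lower genes LKO column 2 was the lowest of the 7 in 22.5% and LKO column 3 in 23%, against 13.2% and 12.2% of all genes. LKO column 1, with the smallest share, was the lowest of the 7 in 30.6% of the higher genes, against 17.2% of all. These shares carry no test, since the higher and lower genes were picked from the same libraries.

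The labelled comparison, LKO against Flox, asked whether loss of Arg2 from hepatocytes goes with a change in the liver transcriptome. By edgeR's quasi-likelihood test with Benjamini-Hochberg adjustment, 0 of 15894 genes passed in either direction (0% higher and 0% lower), 1193 had an unadjusted p under 0.05 and the smallest adjusted p was 0.652. DESeq2, which gave an adjusted p to 8184 genes, called 11, with 5 higher and 6 lower in LKO. Among them Saa2, Slc13a3, Npr2 and Fam25c were lower in LKO and higher without overlap in the high livers, as were 4.56% of all genes in the latter. Saa2 was used to divide the livers, and all high livers are Flox, so this overlap carries no test. Without Flox 2, 3 and 4, edgeR called 0 genes and 418 had an unadjusted p under 0.05. These p-values measure only the spread between libraries, since the labels do not say in so many words that each library is a separate mouse.

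The mean log10 share of Saa1 and Saa2 was -0.75 ± 1.24 in Flox (SD, n = 5) and -1.75 ± 0.54 in LKO (SD, n = 5). The share chose the livers, so this difference is given without a test. All 3 high livers are Flox, but the 2 other Flox livers, at 0.00970% and 0.00787%, lay inside the LKO range of 0.00371% to 0.0803%. Whether the high share belongs to the genotype was not tested. The genes leading in either direction were picked for lying beyond every low liver, Flox 1 and Flox 5 included. Their differences against Flox 1 and Flox 5 alone had the same sign as those against all low livers by construction, and were mostly larger. They were 6.99 and 6.17 log2 units for Saa1, 5.66 and 5.08 for Lcn2, 5.18 and 4.36 for Prtn3, 3.67 and 2.68 for Socs3, and 2.60 and 2.32 for Apcs. On the lower side they were -7.43 and -6.13 for Cidea, -4.03 and -3.19 for Cidec, -2.89 and -2.68 for Scd1, and -1.50 and -1.58 for Cyp3a11. MHC class II genes had a median of 0.77 against Flox 1 and Flox 5 and 1.4 against all low livers. The LKO livers were lower than Flox 1 and Flox 5 in these genes by a median of 0.74 log2 units, with no gene of the list past the adjusted threshold in LKO against Flox.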

How the data were processed

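Mouse liver RNA was measured in 10 RNA-seq libraries after oligo-dT selection, per the labels' protocols. What the authors deposited is a table of raw read counts by Ensembl gene, as whole numbers, per the file headers. Tools named in the submitters' processing notes are bcl2fastq, STAR 2.5.1a, Subread, featureCounts 1.4.6-p5 and the build is GRCm38. The sources used here do not give strandedness, the annotation used or the handling of reads with several matches, so overlapping, antisense and near-identical genes may share or lose reads.

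Of 55774 lines 287 repeats of an identifier with equal counts were dropped, which left 55487 genes, 22489 of them with no count. The LKO columns are numbered 1 to 5 while the LKO titles carry other numbers, so LKO libraries are called by column. The limit that a count of 0 allows is 3 counts (0.0546 to 0.0692 CPM). The reads carry no molecular identifiers, so intervals and floors cover counting error only. Genes detected per library were 21937 to 23811, and TMM factors 0.963 to 1.04. edgeR 4.0.16 (R 4.3.3) with filterByExpr kept 15894 genes. Levels are TMM-scaled CPM, and differences are of mean log2 CPM with a prior count of 2. For LKO against Flox the test was edgeR's quasi-likelihood F test (robust, Benjamini-Hochberg, threshold 0.05), and by DESeq2 1.42.0 as an alternative. Correlations were tested by exact permutation (scipy 1.17.1), two-sided. The fit was tested on simulated data.

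The division of livers, the genes and the 45 gene lists (1075 symbols, 1070 found, 1026 measured) were chosen with earlier results of these data known. Named genes are the 6 markers, the 12 higher and 12 lower genes with the largest difference among those without overlap at a mean of at least 5 CPM (predicted genes left out), and in each list up to 4 members without overlap or, where there were none, the 2 with the largest difference. Others were added after their values were seen, to show members of a list that did not separate the livers or that complete a pathway. Gene positions are from GENCODE M21 (55141 identifiers matched), and promoters from RefSeq. Alternatives were other scalings, low-count filters and prior count, a stricter division, Flox 1 and 5 as the low livers, and each library left out in turn.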

Additional observations from a re-analysis of the deposited data

Results flagged for a closer look

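Of 56 sets of values checked, 1 held a value far from the rest of its group. Cyp2c55 stood at 25.2 CPM in LKO column 3, and the next LKO library at 14.4 CPM. Chance alone gives such a value in about 1 of 20 groups.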

How the results depend on the processing

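No paired analysis was possible because the Flox and LKO titles share no replicate numbers. The numbers without overlap were, for all higher, 2-fold higher, all lower and 2-fold lower genes, 725, 214, 839 and 204. Counting only shares over 1% as high, which leaves out Flox 4, gave 1933, 357, 2022 and 634, and taking Flox 1 and Flox 5 as the low livers 2605, 575, 2846 and 542. Both have fewer libraries to separate. Without a filter on low counts 346 genes were 2-fold higher. At a mean of at least 5 CPM, 8970 genes were compared and 80 were 2-fold higher, 546 lower and 77 2-fold lower. Leaving out each library in turn gave 774 to 1933 higher, 210 to 586 2-fold higher, 846 to 2022 lower and 206 to 634 2-fold lower genes. The largest moves came without Flox 4 (as above), without Flox 2 (1528 higher, 586 2-fold higher and 1303 lower) and without LKO column 2 (396 2-fold higher). With DESeq2 size factors Acly, Tkt and Cyp2c29 no longer separated the livers. DESeq2 called 11 genes in LKO against Flox where edgeR called 0 under each alternative. Among the low livers, leaving out LKO columns 2 and 3 turned r of Serpina3n from 0.57 to -0.045 and of Alb from 0.476 to -0.332. The difference of Hamp turned from 0.63 to -0.18 against Flox 1 and Flox 5. Hamp did not separate the livers in either comparison. The cause of these moves was not tested.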
